A study of Arabidopsis thaliana with 31 samples.

Results

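The 36 genes described here make, sense or answer to jasmonate in Arabidopsis thaliana. They were chosen by gene identifier: the 12 JAZ repressor genes JAZ1 to JAZ12, 12 genes of jasmonate synthesis (LOX2, LOX3, LOX4, LOX6, AOS, AOC1 to AOC4, OPR3, OPCL1 and ACX1), the conjugating enzyme gene JAR1, the turnover genes CYP94B3 and CYP94C1, the activator genes MYC2, MYC3 and MYC4, the receptor gene COI1, the adaptor gene NINJA, and the responsive genes VSP1, VSP2, TAT3 and CORI3. All 36 stand among the 32833 genes that each of 2 deposited RNA-seq tables lists. The tables come from 2 experiments on whole seedlings raised on soil in long days and collected 12 days after germination. Experiment A has Columbia-0 (Col-0, the wild type; 2 libraries), the single mutants gcn5-7 and arp6-1 (3 each) and the double mutant gcn5-7 arp6-1 (3). Experiment B has Col-0, gcn5-7, the double mutant nrp1-1 nrp2-2 and the triple mutant gcn5-7 nrp1-1 nrp2-2 (5 each). GCN5 is a histone acetyltransferase, ARP6 belongs to the SWR1 complex that puts the histone variant H2A.Z into chromatin, and NRP1 and NRP2 are histone chaperones. Each mutant genotype is represented by 1 allele per gene, and the labels say neither what the lesions are nor whether replicates were separate sowings, so p-values measure the spread between these libraries, which may be technical.

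Jasmonate is made from membrane lipids that are oxidised in the plastid and shortened in the peroxisome. Joined to isoleucine, it brings the F-box receptor COI1 and JAZ proteins together, and the JAZ proteins are then degraded. JAZ proteins otherwise hold the MYC2, MYC3 and MYC4 transcription factors inactive, partly through NINJA, which recruits the corepressor TOPLESS. MYC factors bind the G-box and also switch on JAZ and synthesis genes, so JAZ transcripts rise together with the response they restrain. In seedlings the pathway is best known from wounding, touch and insect attack.

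Depths recovered from the values were 38300000 to 39600000 reads per library in A and 10400000 to 16800000 reads in B. Values are TPM (transcript abundance corrected for gene length and depth) that the authors scaled by TMM, and all levels below are in this unit. The targeted genes went with the labels where their RNA could show it: ARP6 lay between 0.109 and 0.775 in the arp6-1 genotypes against 18.2 and 36.1 in Col-0 of A, and NRP2 was at 0 in all 5 triple-mutant libraries and at 0.403 or less in nrp1-1 nrp2-2, against 9.16 to 14.4 in Col-0 of B. NRP1 RNA fell by 1.89 in nrp1-1 nrp2-2 and by 1.21 in the triple mutant against Col-0 (log2). GCN5 RNA did not change beyond the spread in gcn5-7 (log2 fold change 0.23, adjusted p = 0.988 in A and -0.28, adjusted p = 0.33 in B), and therefore checks no label. Leaf markers were abundant in every library. The root marker IRT1 was at 0 in 30 of 31 libraries, and the other root markers were CASP1, at most 2.91, and PYK10, 6.28 to 207. Replicate 1 of Col-0, gcn5-7 and arp6-1 in A stood apart, with column sums of 1388400 to 2078200 against at most 1098200 in the other libraries of A.

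JAZ9 and JAZ12 were the most abundant repressor transcripts in Col-0 of B, at 75.7 ± 11.4 and 66.4 ± 10.7 (mean ± SD, n = 5). JAZ6 followed at 23.2 ± 6.71 and JAZ2 at 14.0 ± 1.29, while JAZ11, JAZ3 and JAZ1 had means between 4.02 and 8.09. JAZ4, JAZ5, JAZ7, JAZ8 and JAZ10 had means of 0.117 to 1.68. Among the synthesis genes AOS, allene oxide synthase, was the highest at 89.7 ± 43.8, next to the plastid lipoxygenase gene LOX2 at 68.0 ± 19.4 and the peroxisomal acyl-CoA oxidase gene ACX1 at 57.4 ± 14.9; the spreads of these 3 overlap. Tests covered genes whose mean over the libraries of their table reached 1: 33 of the 36 in A (not JAZ4, CYP94B3 and MYC2) and 32 in B (not JAZ4, JAZ7, JAZ8 and CYP94B3). JAZ4 never exceeded 0.575 in any library, and CYP94B3, which oxidises the jasmonate conjugate, reached 1.75 in a single arp6-1 library and 1.16 in a single gcn5-7 library of A. A gene was called changed at an adjusted p (Benjamini-Hochberg over all genes tested, limma) below 0.05.

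The promoters of some genes called below, and of some that were not called, contain a G-box, CACGTG, or the related letters AACGTG (T/G-box). MYC2 is known to bind both. In windows from 250 bases before to 50 bases from the annotated start, searched on both strands, 6 of the 36 genes (16.67%) held CACGTG, against 7.052% of 33054 nuclear genes, and 10 of 36 (27.78%) held AACGTG, against 8.662%. No match of one shared bases with a match of the other. The 250 bases before the start are printed for the 6 genes that were called in a comparison described below and have a match there. JAZ2, JAZ6 and ACX1 were higher in gcn5-7 of B, and JAZ6, JAZ7, JAZ8 and AOS were lower in gcn5-7 arp6-1 than in gcn5-7. Sequences are from RefSeq (TAIR10.1), 5′ to 3′ along the gene's strand, with the motif in capitals.
JAZ2 (chr1:28150447-28150696, minus strand): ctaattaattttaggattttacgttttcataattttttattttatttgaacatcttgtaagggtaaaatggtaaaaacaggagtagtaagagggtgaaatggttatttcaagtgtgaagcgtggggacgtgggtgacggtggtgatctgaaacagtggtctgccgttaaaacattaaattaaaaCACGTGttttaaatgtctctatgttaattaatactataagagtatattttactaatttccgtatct
ACX1 (chr4:9428896-9429145, minus strand): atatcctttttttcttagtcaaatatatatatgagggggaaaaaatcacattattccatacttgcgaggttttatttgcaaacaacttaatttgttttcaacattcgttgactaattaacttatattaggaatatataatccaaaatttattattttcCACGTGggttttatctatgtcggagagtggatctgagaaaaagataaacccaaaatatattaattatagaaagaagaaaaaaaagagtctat
JAZ6 (chr1:27276563-27276812, minus strand): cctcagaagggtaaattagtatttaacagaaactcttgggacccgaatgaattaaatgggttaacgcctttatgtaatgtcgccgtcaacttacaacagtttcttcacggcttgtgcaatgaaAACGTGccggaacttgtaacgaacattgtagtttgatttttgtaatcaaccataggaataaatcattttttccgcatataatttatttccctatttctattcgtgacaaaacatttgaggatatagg
JAZ7 (chr2:14572780-14573029, plus strand): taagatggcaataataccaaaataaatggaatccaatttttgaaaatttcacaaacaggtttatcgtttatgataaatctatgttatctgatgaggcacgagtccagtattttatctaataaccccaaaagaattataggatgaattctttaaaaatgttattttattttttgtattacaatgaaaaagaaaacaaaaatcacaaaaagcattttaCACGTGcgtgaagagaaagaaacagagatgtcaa
JAZ8 (chr1:10596102-10596351, plus strand): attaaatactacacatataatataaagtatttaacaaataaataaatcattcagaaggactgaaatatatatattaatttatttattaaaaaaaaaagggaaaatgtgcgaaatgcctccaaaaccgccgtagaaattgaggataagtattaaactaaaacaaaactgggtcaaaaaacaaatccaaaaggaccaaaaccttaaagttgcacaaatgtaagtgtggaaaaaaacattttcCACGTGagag
AOS (chr5:17099596-17099845, minus strand): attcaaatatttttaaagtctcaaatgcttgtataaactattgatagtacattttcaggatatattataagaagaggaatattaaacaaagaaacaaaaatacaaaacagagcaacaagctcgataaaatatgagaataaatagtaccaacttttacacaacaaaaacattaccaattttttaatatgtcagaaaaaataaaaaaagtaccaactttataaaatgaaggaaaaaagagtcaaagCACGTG
The first base of the G-box lies 66 bases before the start in JAZ2, 92 in ACX1, 34 in JAZ7, 10 in JAZ8 and 6 in AOS, and the T/G-box of JAZ6 lies 127 bases before it. The windows of JAZ1, LOX2, OPCL1, CYP94C1, NINJA and TAT3, which were called in gcn5-7 of B as well, hold neither set of letters. Those of LOX6 and AOC3, called in gcn5-7 arp6-1 against gcn5-7, hold neither, and LOX3 and AOC2 have AACGTG only after the start. JAZ3, JAZ5, JAZ12, LOX4, AOC1, MYC2 and VSP1 also hold a match, and none of these was called unless the settings were changed. A match is a description of the sequence, and no binding was measured here.

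In experiment B, the gcn5-7 seedlings had more RNA of 9 jasmonate genes than Col-0. In gcn5-7 against Col-0, 9 of 32 tested members were higher and 0 lower, where 11.6% of all 19507 genes tested were called higher, 14.7% lower and 26.2% in either direction. The share of members called, 28.1%, was thus close to the share of all genes called in either direction. The 9 were 3 of 9 repressor genes (JAZ1, JAZ2 and JAZ6), 3 of 12 synthesis genes (LOX2, OPCL1 and ACX1), the turnover gene CYP94C1, the adaptor NINJA and the responsive gene TAT3. The median log2 fold change of the 32 was 0.41, against 0.06 for all genes. None of the 3 activator genes was called.

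TAT3, which encodes a tyrosine aminotransferase induced by jasmonate, moved furthest of the 32 (AT2G24850, chr2:10582074-10585216, minus strand). Its level was 4.93, 7.95, 10.7, 0.899 and 5.38 in the 5 Col-0 libraries and 230.4, 61.8, 35.0, 25.0 and 97.3 in gcn5-7. Each gcn5-7 library was above every Col-0 library, with a log2 fold change of 3.49 ± 0.67 (SE), adjusted p = 0.00139. JAZ1, a repressor degraded on hormone binding (AT1G19180, chr1:6621777-6623668, plus strand), was at 5.56, 2.49, 6.82, 2.94 and 2.27 in Col-0 and at 31.5, 13.3, 14.9, 10.5 and 33.3 in gcn5-7. These groups did not overlap either, and the log2 fold change was 2.06 ± 0.40 (SE), adjusted p = 0.00141.

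JAZ2 (AT1G74950, chr1:28148574-28150446, minus strand) lay within 12.0 to 15.5 in Col-0 and was at 38.5, 26.4, 24.3, 19.2 and 36.3 in gcn5-7, again with no overlap, for a log2 fold change of 0.95 ± 0.21 (SE), adjusted p = 0.00325. JAZ6 (AT1G72450, chr1:27273968-27276562, minus strand) was at 16.3, 33.8, 22.2, 19.0 and 24.5 in Col-0 and at 41.9, 38.2, 33.6, 33.6 and 64.4 in gcn5-7. The highest Col-0 library of JAZ6 was slightly above the 2 lowest gcn5-7 libraries, and the log2 fold change was 0.84 ± 0.24 (SE), adjusted p = 0.0179. NINJA (AT4G28910, chr4:14264034-14266786, minus strand) was at 27.3, 24.1, 29.0, 19.8 and 27.8 in Col-0 and at 40.5, 37.7, 38.2, 34.4 and 38.0 in gcn5-7. Its change was small but without overlap, at 0.55 ± 0.16 (SE), adjusted p = 0.015. The other 6 repressor genes tested had log2 fold changes from -0.11 (JAZ9) to 0.69 (JAZ5).

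Of the synthesis genes, OPCL1 (AT1G20510, chr1:7103362-7106121, minus strand) makes the coenzyme A ester of the precursor that enters beta-oxidation. It was at 9.02, 9.39, 11.7, 6.96 and 6.56 in Col-0 and at 35.1, 17.6, 18.9, 12.9 and 32.9 in gcn5-7. All 5 mutant libraries were above all 5 wild-type libraries, and the log2 fold change was 1.26 ± 0.31 (SE), adjusted p = 0.00723. LOX2 (AT3G45140, chr3:16525245-16529352, plus strand), a lipoxygenase of the first step, was at 57.7, 67.1, 102, 54.5 and 59.0 in Col-0 and at 272, 153, 128, 76.1 and 141 in gcn5-7, with overlap, for a log2 fold change of 1.09 ± 0.38 (SE), adjusted p = 0.0414. ACX1 (AT4G16760, chr4:9424534-9428895, minus strand), an oxidase of the beta-oxidation steps, was at 61.2, 50.2, 81.4, 43.6 and 50.4 in Col-0 and at 134, 82.6, 93.7, 60.8 and 119 in gcn5-7. Its groups overlapped as well, and the log2 fold change was 0.74 ± 0.27 (SE), adjusted p = 0.0464. With gene length corrected, LOX2 fell to 0.65 (adjusted p = 0.187) and ACX1 to 0.51 (adjusted p = 0.159), and neither was called. The other 9 synthesis genes were not called. Their log2 fold changes ran from -0.71 for AOS to 1.09 for AOC3, the latter with an SE of 0.49 and levels of 7.02, 1.43, 5.96, 6.71 and 1.13 in Col-0 and 22.4, 6.39, 7.08, 2.87 and 17.1 in gcn5-7. AOC1, AOC2 and AOC3 are neighbouring, closely similar genes on chromosome 3 and VSP1 and VSP2 neighbours on chromosome 5, and how reads shared by such copies were counted is not given in the sources used here, so the split among them is uncertain.

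CYP94C1 (AT2G27690, chr2:11809279-11811280, plus strand), a cytochrome P450 that oxidises the active conjugate, was low in Col-0, at 0.485, 0.946, 0.482, 0.628 and 0.897, and at 3.498, 1.90, 1.83, 0.718 and 3.76 in gcn5-7. One gcn5-7 library lay within the Col-0 range, and the log2 fold change was 0.90 ± 0.26 (SE), adjusted p = 0.0178. JAR1, which joins jasmonate to isoleucine, was at 21.3, 15.7, 28.2, 22.5 and 26.2 in Col-0 and at 43.8, 27.0, 38.3, 33.7 and 33.6 in gcn5-7, a log2 fold change of 0.62 ± 0.29 (SE), adjusted p = 0.118 that was not called. The receptor gene COI1 was at 28.7, 26.4, 32.8, 27.0 and 26.3 in Col-0 and at 33.5, 28.0, 41.4, 28.7 and 29.5 in gcn5-7. COI1 levels overlapped, and the log2 fold change of 0.17 ± 0.20 (SE), adjusted p = 0.547 was not called. MYC4 had the lowest value of the activators at -0.99 ± 0.49 (SE), adjusted p = 0.134, and VSP2, a vegetative storage protein gene that jasmonate induces in leaves, the lowest of all members at -1.28 ± 0.74 (SE), adjusted p = 0.198; neither was called. Of the 4 responsive genes, 1 was called (TAT3), and the estimates for VSP1 and CORI3, a cystine lyase gene, were 0.54 and -0.59. That no member was lower depended on the setting. With gene length corrected, 8 members were higher and MYC4 was lower (-1.14, adjusted p = 0.0466), beside 28.4% of all genes called. In replicates 3 to 5 alone, where 12% of all genes were called, JAZ1, JAZ2 and JAZ6 were higher and VSP2 (-1.88, adjusted p = 0.0178) and CORI3 (-0.91, adjusted p = 0.00958) lower.

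**Figure D1:**
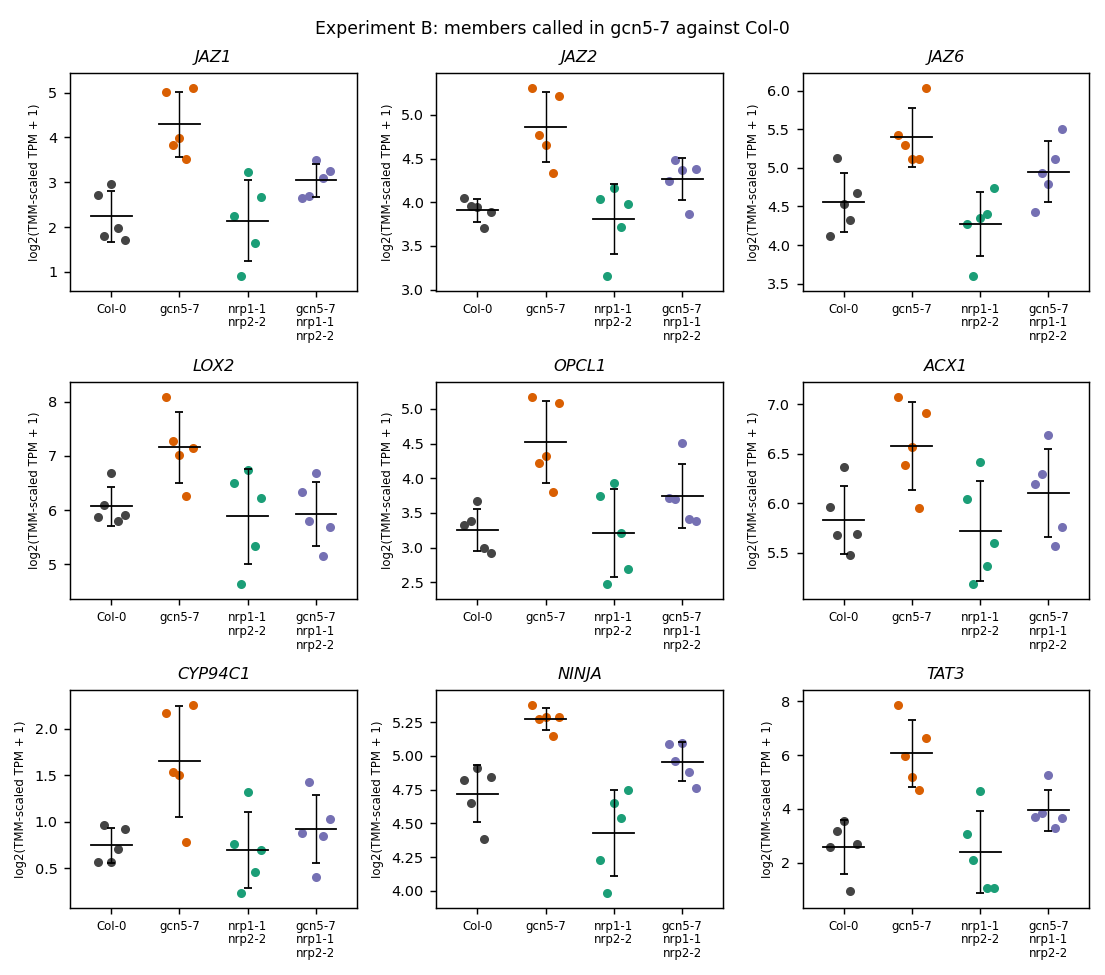
Levels in all 20 libraries of experiment B of the 9 genes that differed between gcn5-7 and Col-0, as log2(TMM-scaled TPM + 1) on the vertical axis (each panel has its own range, not starting at 0) by genotype; points are libraries, bars are mean ± SD. In TAT3, JAZ1, JAZ2, OPCL1 and NINJA the gcn5-7 points lie above all Col-0 points. The triple mutant lies between the wild type and gcn5-7 in mean for 8 of the genes, and is below the wild type in mean for LOX2. Because the genes were picked for high gcn5-7 levels, lower triple-mutant means are no test.

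Other transcripts moved with these. Of 10 genes that respond within minutes to touch or wounding, 8 were higher in gcn5-7 of B and 0 lower (median log2 fold change 1.68). Of all genes tested, 11.6% were called higher and 14.7% lower. The list was chosen with earlier results of these data known, so its count is no independent test. Among the 8 were the zinc finger gene ZAT10 (1.56 ± 0.39, adjusted p = 0.00764), ERF6 (1.19 ± 0.31, adjusted p = 0.0103) and WRKY33 (1.89 ± 0.55, adjusted p = 0.0176). The summed level of the 10 genes was 83.9 to 218 in Col-0 and 216 to 687 in gcn5-7. All 3 leaf markers were lower in gcn5-7, with a sum of 12020 to 31830 against 40300 to 71960, and of the root markers IRT1 was at 0 in both genotypes, CASP1 at most 1.07, and PYK10 higher (71.2 to 207 against 35.9 to 66.2). The part of these genes and markers in the jasmonate result was not tested, and in whole seedlings fewer cells of a type and less RNA per cell cannot be told apart. In the libraries numbered 1 and 2 and in those numbered 3 to 5, all 9 genes had positive differences. TAT3 differed by 4.05 and 3.12, JAZ1 by 2.17 and 1.98, and LOX2 by 1.70 and 0.68 (log2). The 9 were picked as higher in these same libraries, so the shared sign follows largely from the choice and is no test. Without gcn5-7 replicate 5 only JAZ1, JAZ2, NINJA, OPCL1 and TAT3 were called, beside 19.3% of all genes. With library sums set equal, the median of all genes moved from 0.06 to 0.41. Under that setting 13 members were called higher and 0 lower, beside 31.3% of all genes called. Relative to the median of all genes, the change was 3.43 for TAT3, 2.00 for JAZ1 and 0.49 for NINJA.

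Of 35 further genes of the pathway, 27 were tested in B, and 8 were higher and 3 lower in gcn5-7 (40.7%, beside 26.2% of all genes). JMT, which makes the volatile methyl ester, fell from 12.7 to 2.18 (log2 fold change -2.23 ± 0.36, adjusted p = 0.000386). IAR3, an amidohydrolase that takes the conjugate apart, rose from 18.7 to 77.7 (1.78 ± 0.38, adjusted p = 0.00325). MFP2, a multifunctional protein of beta-oxidation, rose from 19.9 to 43.4 (1.05 ± 0.25, adjusted p = 0.00577).

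Experiment A, with independent libraries, addressed the same contrast with less replication. Here 0 of 33 members passed in gcn5-7 relative to Col-0, and 0.142% of all 18322 genes did. At an unadjusted p below 0.05 there were 3, AOC3, CYP94C1 and TAT3. Both Col-0 libraries differed widely from each other: JAZ1 was at 1.48 and 15.9 and LOX6 at 0.862 and 6.97 (replicates 1 and 2). TAT3 was at 65.3 and 77.5 in Col-0 and at 464, 391 and 160.1 in gcn5-7, and CYP94C1 at 0.986 and 1.73 and at 7.64, 7.23 and 4.83. Neither gene overlapped between the groups, and the log2 fold changes were 2.10 ± 0.73 (SE), adjusted p = 0.388 and 1.68 ± 0.36 (SE), adjusted p = 0.113. With gene length corrected, CYP94C1 was called (1.58, adjusted p = 0.039).

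All 9 genes called in B had positive log2 fold changes in A, from 0.48 (NINJA) to 2.10 (TAT3), and 26 of the 33 members tested in A were positive (median 0.49; all genes 0.01). Over the 31 members tested in both experiments, 23 had the same sign, and the log2 fold changes of A and B correlated across genes with r = 0.813 and rho = 0.841. This is a description over genes that share libraries within each experiment and are not independent replicates. The shares of all genes that were positive or of the same sign, and their correlation, were not computed. The values are therefore not read as particular to these genes. VSP2 had the lowest value in both experiments, -0.95 in A and -1.28 in B, and was called in neither.

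**Figure D2:**
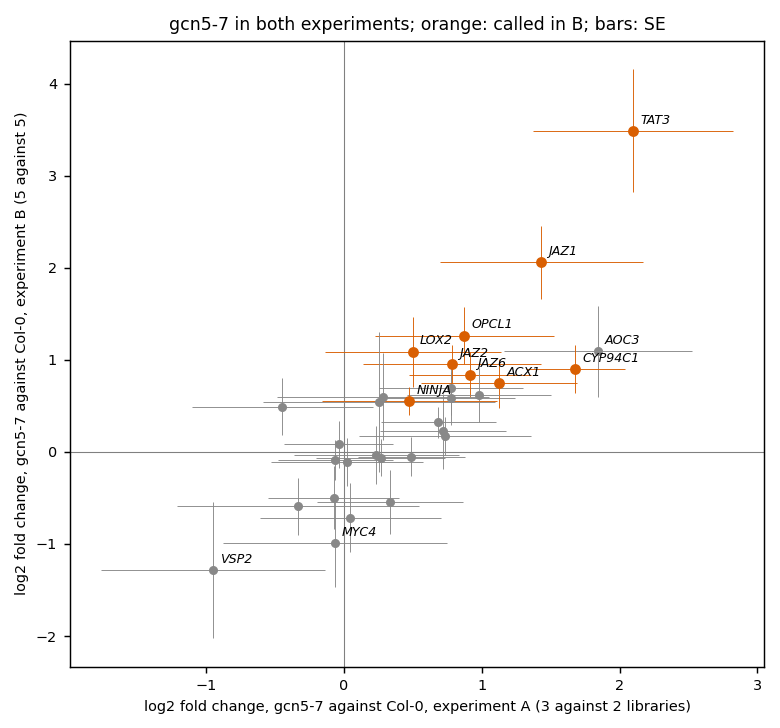
Log2 fold change of gcn5-7 against Col-0 in experiment A (horizontal) and B (vertical) for the 31 members tested in both; bars are SE, and orange points are the 9 genes called in B. TAT3 and JAZ1 stand highest in B, VSP2 lowest in both, and the SE is wider in A than in B for the labelled genes.

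With arp6-1 added to gcn5-7, several of these transcripts were lower. Of 33 members, 8 were lower and 2 higher in gcn5-7 arp6-1 than in gcn5-7, where 3.88% of 18322 genes were called lower, 9.79% higher and 13.7% in either direction. The lower ones were the repressor genes JAZ6, JAZ7 and JAZ8, the synthesis genes AOS, AOC2 and AOC3, CYP94C1 and TAT3, and the higher ones the lipoxygenase genes LOX3 and LOX6. For none of the 10 did the libraries of both genotypes overlap, which a call with 3 libraries a group makes likely. Of all 33 members, 17 did not overlap, and the share over all genes was not counted. The median over the 33 was -0.52, against 0.12 for all genes.

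TAT3 was at 464, 391 and 160.1 in gcn5-7 and at 58.4, 15.9 and 45.9 in the double mutant, below both Col-0 libraries, and its log2 fold change was -3.09 ± 0.65 (SE), adjusted p = 0.0133. CYP94C1 was at 7.64, 7.23 and 4.83 in gcn5-7 and at 1.40, 0.617 and 0.937 in the double mutant. This gene had the smallest adjusted p among the members (-1.93 ± 0.32, adjusted p = 0.00508), and it stayed called whichever of the 11 libraries was left out. It was also called in the test of whether the double mutant departs from the sum of the single-mutant changes (log2 -2.29 ± 0.48, adjusted p = 0.0479; 1.38% of all genes called), where no other member was. With a term for the 3 libraries with high column sums, 9 members were called in this test, 1 higher (LOX6, 2.35, adjusted p = 0.00271) and 8 lower (JAZ6, JAZ8, JAZ9, JAZ10, AOS, AOC3, CYP94C1 and TAT3), beside 36% of all genes. In arp6-1 alone CYP94C1 was at 1.22, 2.02 and 3.004. The interaction call was lost, with adjusted p up to 0.167, when any one library other than Col-0 replicate 1 or gcn5-7 replicate 3 was left out.

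AOS (AT5G42650, chr5:17097564-17099595, minus strand) fell to 46.5, 55.2 and 77.7 in the double mutant from 380.1, 223 and 192 in gcn5-7. Its log2 fold change was -2.10 ± 0.59 (SE), adjusted p = 0.0393; AOS stood at 467 and 129 in Col-0 and at 423, 161 and 122 in arp6-1, so the double mutant was the lowest of the 4 genotypes. AOC2 (AT3G25770, chr3:9406669-9408071, plus strand) went from 125, 108 and 147 to 35.2, 31.6 and 63.0 (-1.58 ± 0.41, adjusted p = 0.0284). AOC3 (AT3G25780, chr3:9409160-9411090, plus strand) went from 48.0, 30.3 and 24.9 to 3.20, 1.25 and 8.91 (-2.91 ± 0.61, adjusted p = 0.0131). Both encode allene oxide cyclases, the enzymes that follow AOS.

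Among the repressors, JAZ6 was at 99.9, 88.0 and 40.8 in gcn5-7 and within 21.1 to 26.4 in the double mutant (-1.60 ± 0.40, adjusted p = 0.0249). JAZ7 (AT2G34600, chr2:14573030-14573952, plus strand) was at 8.48, 3.60 and 1.55 and at 0.421, 0.225 and 0.392 (-1.84 ± 0.44, adjusted p = 0.0223). JAZ8 (AT1G30135, chr1:10596352-10597341, plus strand), a repressor that binds the receptor poorly, was at 6.004, 2.34 and 2.96 and at 0.179, 0 and 0.182 (-2.02 ± 0.46, adjusted p = 0.0193). JAZ9 (-1.56, adjusted p = 0.0579) and JAZ10 (-1.10, adjusted p = 0.0565) missed the threshold. JAZ1 was not called and overlapped: it was at 10.7, 19.1 and 21.7 in gcn5-7 and at 12.8, 15.002 and 26.6 in the double mutant, with a log2 fold change of 0.07 ± 0.66 (SE), adjusted p = 0.954.

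LOX6 (AT1G67560, chr1:25319804-25324581, plus strand), a lipoxygenase known from fast wound responses, was at 0.548, 1.94 and 3.99 in gcn5-7 and at 10.4, 11.9 and 11.4 in the double mutant (2.11 ± 0.59, adjusted p = 0.0384). LOX3 (AT1G17420, chr1:5977323-5981521, plus strand) was at 3.88, 6.27 and 5.72 and at 12.9, 13.6 and 18.1 (1.34 ± 0.37, adjusted p = 0.0384). With gene length corrected, LOX3 shrank to 0.33 (adjusted p = 0.454), LOX6 to 0.99 (adjusted p = 0.0262), JAZ7 to -1.04 and JAZ8 to -1.21, AOS (-2.43, adjusted p = 0.0549) and AOC2 (-1.26, adjusted p = 0.0504) lost their call, and JAZ5 (-0.99), JAZ10 (-1.55) and OPCL1 (-1.32) were called lower. With library sums set equal the median of all genes moved from 0.12 to 0.43. Under that setting 4 members were called lower (JAZ7, JAZ8, AOS and CYP94C1) and 0 higher, beside 9.99% of all genes called. Relative to the median of all genes the changes were -3.21 for TAT3, -2.22 for AOS, -2.05 for CYP94C1 and 1.99 for LOX6. The calls rest on few libraries, and the share of all genes called fell as well. Without double-mutant replicate 2, 1 member was called (3.01% of all genes). Without gcn5-7 replicate 1, the library with the high column sum, 1 was called (4.6%). Without double-mutant replicate 1, 3 were called (6.92%), and 4 without either double-mutant replicate 3 (4.34%) or gcn5-7 replicate 2 (6.85%). Without gcn5-7 replicate 1, the log2 differences were -2.80 for TAT3, -1.81 for AOS and 1.67 for LOX6. All 10 kept their direction, which was fixed in advance because the libraries of both genotypes did not overlap, so this is no test. With a term for the 3 libraries with high column sums, 3 members were called higher and 14 lower, beside 40.6% of all genes.

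**Figure D3:**
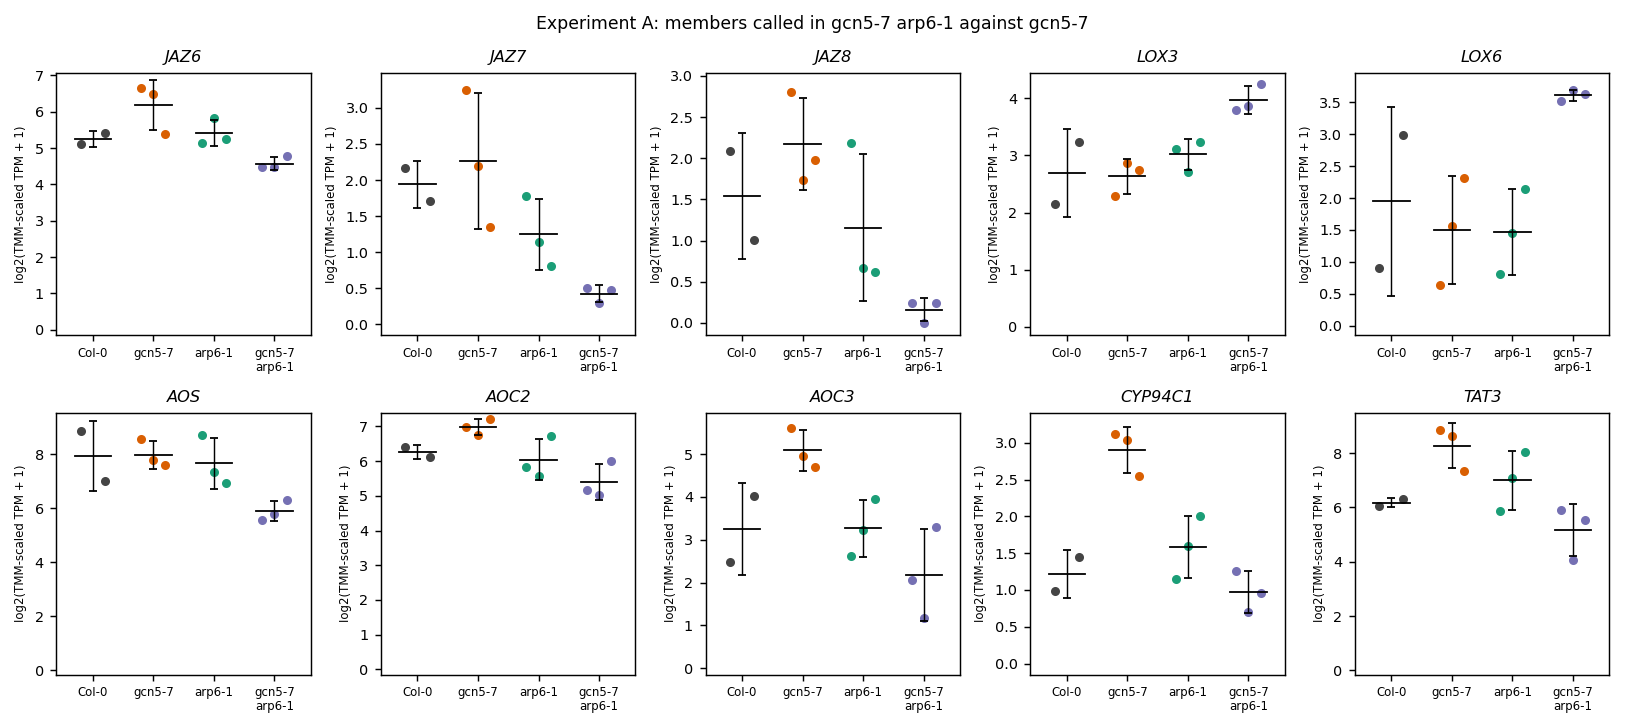
Levels of the 10 genes called in gcn5-7 arp6-1 against gcn5-7 in experiment A, in all 11 libraries, as log2(TMM-scaled TPM + 1) on the vertical axis by genotype; points are libraries, bars are mean ± SD (n = 2 for Col-0, 3 elsewhere). The double mutant is below gcn5-7 without overlap in 8 panels and above it in LOX3 and LOX6.

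Of the 9 genes called higher in gcn5-7 of B, 3 (JAZ6, CYP94C1 and TAT3) were among the 8 called lower here, which is 33.3% of the former and 37.5% of the latter. The 2 comparisons share no library. The other 6 had log2 fold changes of -0.55 (OPCL1), -0.21 (JAZ2), -0.00 (ACX1), 0.07 (JAZ1), 0.79 (LOX2) and 0.86 (NINJA) between the double mutant and gcn5-7. How many of all genes were called in both comparisons was not counted, so the shared calls are not read as particular to these genes. Of the 10 rapid touch and wound response genes, 4 were lower and 0 higher in the same comparison, beside 3.88% and 9.79% of all genes. This list was chosen with earlier results of these data known, so its count is no independent test. The changes were -3.83 ± 0.46 (adjusted p = 0.0015) for the cell wall enzyme gene TCH4, -2.58 ± 0.62 (adjusted p = 0.0224) for ZAT10 and -2.64 ± 0.67 (adjusted p = 0.0276) for ERF6. The summed level of the 10 genes was 319 to 595 in gcn5-7, 102 to 181 in the double mutant, 133 to 377 in Col-0 and 152 to 278 in arp6-1. Its part in the jasmonate result was not tested. None of the leaf markers and of the tested root markers was called between these genotypes. Of the 30 further pathway genes tested, 3 were higher and 2 lower (16.7%), close to the 13.7% of all genes called. LOX1, a lipoxygenase that does not feed jasmonate synthesis, rose by 2.49 ± 0.54 (adjusted p = 0.0151). The repressor gene JAV1 fell with -2.16 ± 0.47 (adjusted p = 0.0153), and JMT rose by 1.87 ± 0.41 (adjusted p = 0.0159).

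Against arp6-1, the double mutant had 2 members higher and 0 lower, where 11.9% of genes were called higher, 2.96% lower and 14.8% in all. LOX6 was at 0.749, 1.73 and 3.42 in arp6-1 (2.14 ± 0.59, adjusted p = 0.0372). NINJA was at 4.31, 5.93 and 12.0 in arp6-1, at 32.2, 28.9 and 26.5 in the double mutant, at 4.90 and 23.1 in Col-0 and at 9.91, 13.5 and 27.9 in gcn5-7, so that the double mutant overlapped gcn5-7 but not arp6-1 (1.94 ± 0.57, adjusted p = 0.0449). Both calls were lost without arp6-1 replicate 1 or 2, gcn5-7 replicate 2 or any one double-mutant library. With gene length corrected LOX6 shrank to 0.71 (adjusted p = 0.0951) and NINJA missed the threshold at 1.49 (adjusted p = 0.0526). TAT3 (-2.61, adjusted p = 0.0414) and CYP94C1 (-1.05, adjusted p = 0.0435) were then called lower. The correction thus left 0 members higher and 2 lower, beside 7.44% of all genes called. With a term for the 3 libraries with high column sums, 7 were higher and 6 lower, beside 46.2% of all genes. Among the 10 rapid response genes TCH4 was called, at -2.87 ± 0.46 (adjusted p = 0.00597). Of the further pathway genes 4 of 30 were higher (13.3%), close to the 11.9% of all genes called higher. They were led by LOX1 (2.89 ± 0.54, adjusted p = 0.00964), the Mediator subunit gene MED25 (2.05 ± 0.54, adjusted p = 0.0332) and the peroxisomal importer gene PXA1 (2.05 ± 0.54, adjusted p = 0.0334). No member was called in the double mutant against Col-0 (7 at an unadjusted p below 0.05; 2.06% of all genes called) or in arp6-1 against Col-0 (0 at an unadjusted p below 0.05; 0.0164% of all genes called). Without Col-0 replicate 2, 10 members were called in the double mutant against Col-0, 7 higher and 3 lower, beside 39.4% of all genes.

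JAR1 in A was at 6.19 and 20.02 in Col-0, at 16.2, 29.1 and 26.6 in gcn5-7, at 6.03, 13.4 and 14.5 in arp6-1 and at 31.3, 33.2 and 31.0 in the double mutant. All 3 double-mutant libraries were above the libraries of the other genotypes, and no comparison called the gene (against arp6-1, 1.499 ± 0.47, adjusted p = 0.0539). COI1 was at 11.3 and 21.7 in Col-0, at 31.1, 28.1 and 22.1 in gcn5-7, at 4.68, 28.3 and 21.2 in arp6-1 and at 23.0, 15.2 and 16.1 in the double mutant. The lowest COI1 value, in arp6-1 replicate 1, belongs to one of the libraries with a high column sum, as do the lowest values of MYC3 (6.31) and MYC4 (3.77).

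In nrp1-1 nrp2-2 against Col-0 of B, 0 of 32 members were called (1 at an unadjusted p below 0.05; 0.39% of all genes called), with a median of -0.11 against -0.05 for all genes; the replicate block also gave 0 members, beside 1.71% of all genes. VSP1, a vegetative storage protein gene, had the highest estimate. It was at 3.99, 12.48, 3.97, 5.24 and 0.639 in Col-0 and at 29.7, 18.8, 22.1, 19.5 and 11.5 in nrp1-1 nrp2-2, which overlap, with 2.01 ± 0.76 (SE), adjusted p = 0.584. ZAT10 was the rapid response gene called here (1.90 ± 0.39, adjusted p = 0.0282).

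Of the 9 genes called in gcn5-7 of B, 8 had a triple-mutant mean between those of Col-0 and gcn5-7, and LOX2 had one below that of Col-0 (64.4 against 68.0). The 9 were picked because they were high in these same gcn5-7 libraries, so lower means in another genotype follow from the choice and test nothing. TAT3 was at 12.0, 13.5, 37.1, 8.71 and 11.7 in the triple mutant and at 7.32, 3.29, 24.4, 1.09 and 1.08 in nrp1-1 nrp2-2. JAZ1 was at 5.30, 5.46, 10.4, 7.55 and 8.503 in the triple mutant and at 3.75, 0.875, 8.41, 2.15 and 5.32 in nrp1-1 nrp2-2. LOX2 was at 79.7, 54.7, 102, 34.8 and 50.6 in the triple mutant. All triple-mutant libraries were below all gcn5-7 libraries for JAZ1, and overlapped them for TAT3 and LOX2.

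Against gcn5-7, 0 of 32 members were called in the triple mutant (8 at an unadjusted p below 0.05; 3.21% of all genes called), with estimates of -2.11 ± 0.67 (SE), adjusted p = 0.0848 for TAT3, -1.66 ± 0.49 (SE), adjusted p = 0.0669 for AOC3, -1.25 ± 0.40 (SE), adjusted p = 0.0832 for JAZ1 and -1.22 ± 0.38 (SE), adjusted p = 0.0804 for LOX2. Deviations of same-numbered libraries of these groups correlated weakly to moderately (r 0.116 to 0.538), and 2 of 5 matched their own number best. With the replicate number as a block 7 members were called, all lower: TAT3 (adjusted p = 0.0079), LOX2 (0.00555), JAZ1 (0.00884), AOC3 (0.0142), JAZ2 (0.0187), OPCL1 (0.0328) and CYP94C1 (0.0415). The block was fitted over all genotypes of B, including gcn5-7 with Col-0, which were not taken as paired (lowest r 0.018). The block raised the share of all genes called to 25.4%, and 7 of 32 members is not above it. This comparison shares its gcn5-7 libraries with the comparison against Col-0. The departure from additivity was called for 0 of 32 (0 at an unadjusted p below 0.05; 0.041% of all genes called), with estimates such as -1.93 ± 0.95 for TAT3 and -1.16 ± 0.56 for JAZ1.

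Against Col-0, the triple mutant had 0 members called (2 at an unadjusted p below 0.05; 2.43% of all genes called), and CORI3 came nearest. It was at 10.3, 13.9, 8.83, 9.64 and 9.07 in Col-0 and at 4.03, 6.88, 2.98, 3.18 and 4.67 in the triple mutant, without overlap (-1.11 ± 0.31, adjusted p = 0.0616), and was called with the replicate block (-1.11, adjusted p = 0.00828; 9.16% of all genes called). Against nrp1-1 nrp2-2, 0 were called (6 at an unadjusted p below 0.05; 0.713% of all genes called), and with the block 3 were: CORI3 (-1.07, adjusted p = 0.0186), NINJA (0.53, adjusted p = 0.0322) and AOC4 (-0.56, adjusted p = 0.0375), beside 6.34% of all genes. NINJA was at 33.1, 30.2, 33.1, 28.5 and 26.1 in the triple mutant and at 17.7, 14.8, 24.2, 22.2 and 25.8 in nrp1-1 nrp2-2, without overlap. JAR1 was at 31.4, 23.9, 37.6, 23.7 and 25.8 and COI1 at 34.8, 37.4, 41.0, 27.8 and 31.4 in the triple mutant, and at 16.6, 6.57, 30.6, 25.3 and 25.4 and 29.1, 13.5, 38.0, 25.6 and 28.7 in nrp1-1 nrp2-2; both overlapped between the genotypes. The summed rapid response level was 119 to 689 in the triple mutant and 97.1 to 396 in nrp1-1 nrp2-2, and ZAT10 was called in the triple mutant against Col-0 (2.05 ± 0.39, adjusted p = 0.00475).

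**Figure D4:**
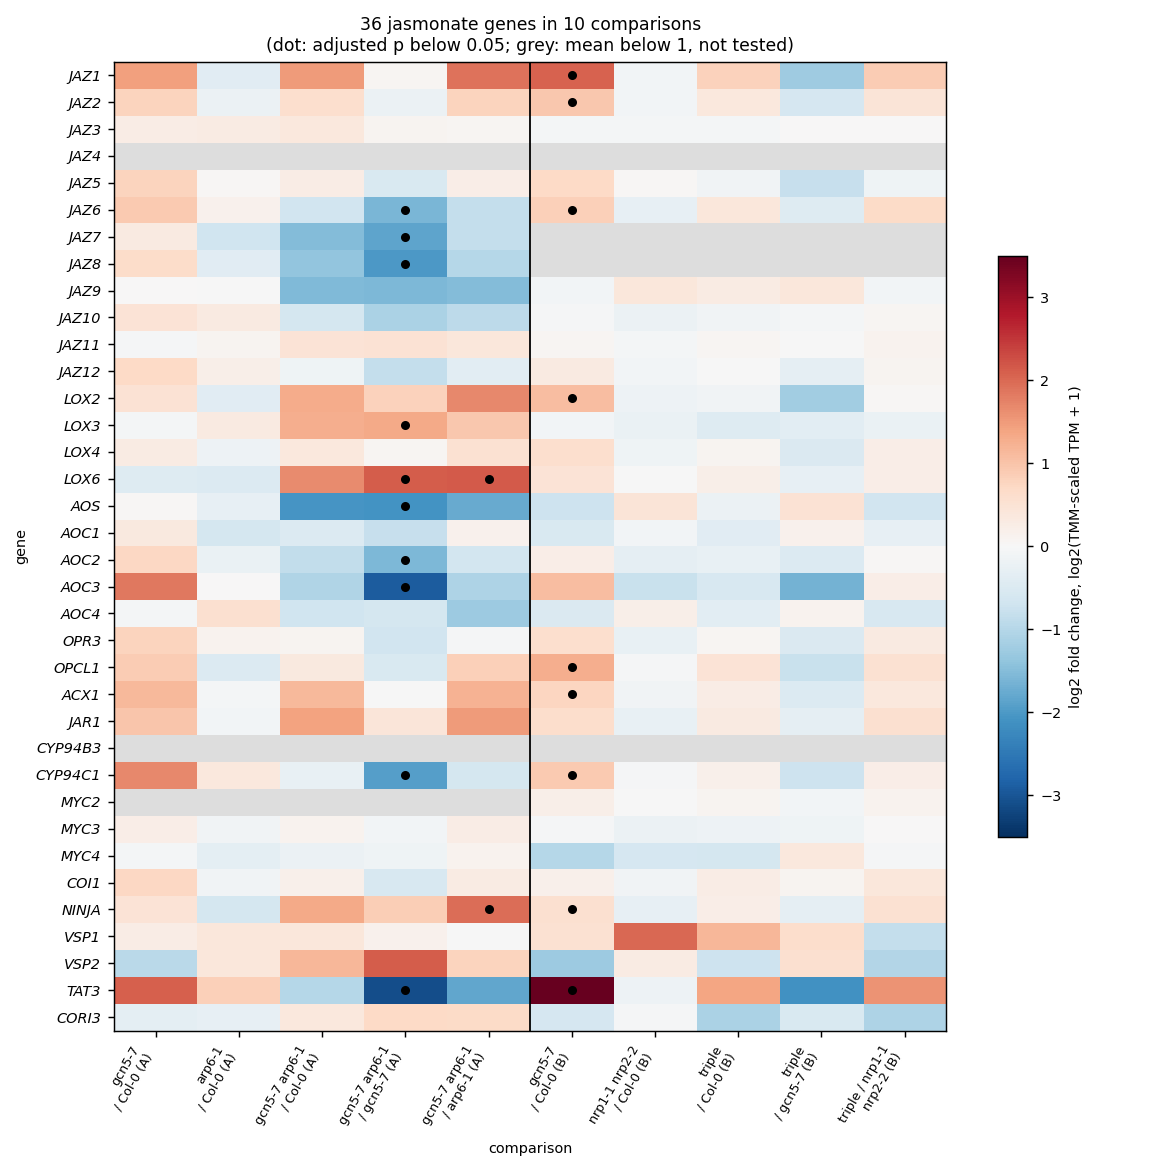
Log2 fold changes of all 36 genes (rows) in 10 comparisons (columns; A left of the line, B right), red higher and blue lower in the first-named genotype; dots mark calls and grey cells genes that were not tested. Called genes are seen in 3 columns: 9 in gcn5-7 against Col-0 of B, 10 in gcn5-7 arp6-1 against gcn5-7 and 2 in gcn5-7 arp6-1 against arp6-1.

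MYC2, the best known activator of the pathway, could be compared in B alone, since it was at 0 in all 11 libraries of A. In B it was at 28.8, 25.6, 17.2, 24.1 and 18.1 in Col-0, at 33.4, 22.6, 19.1, 21.9 and 35.4 in gcn5-7, at 24.1, 18.5, 16.0, 23.0 and 30.9 in nrp1-1 nrp2-2 and at 17.4, 42.2, 15.1, 24.7 and 29.6 in the triple mutant. These ranges overlap throughout, and no comparison called the gene (gcn5-7 against Col-0, 0.19 ± 0.26, adjusted p = 0.591). MYC3 and MYC4 were present in A at means of 20.8 and 23.1 over all libraries.

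MYC2 (AT1G32640, chr1:11798119-11801407, minus strand, TAIR10) shares its locus with AT1G32630 (chr1:11797330-11801359, plus strand): 98.54% of MYC2's exon bases lie under exons of that gene, and 89.26% of AT1G32630's under those of MYC2. AT1G32630 was at 0.504 to 1.35 in A and at 12.7 to 35.6 in B. Genes that lie wholly under exons of the opposite strand shared the pattern: of 649 such genes whose mean in B reached 1, 639 (98.46%) were at 0 in every library of A. Where 50% to under 100% of the exon bases were covered this held for 274 of 818 genes (33.5%), where less was covered for 44 of 4990 (0.8818%), and where none was covered for 0 of 12933. The reverse did not occur: of 18200 genes whose mean in A reached 1, 0 were at 0 throughout B. In B the values of MYC2 and AT1G32630 multiplied by exon length had a ratio of 0.873 to 1.23 (median 0.965) in the 20 libraries, so reads from both genes cannot be told apart there. How overlapping genes and strands were counted is not given in the sources used here. The value of 0 in A is therefore not read as absent RNA, and the level in B may hold reads of either gene. Of the other members 32 share no exon base with another gene, and JAZ10, JAZ12 and COI1 share 3.21%, 4.53% and 0.0796% of theirs.

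**Figure D5:**
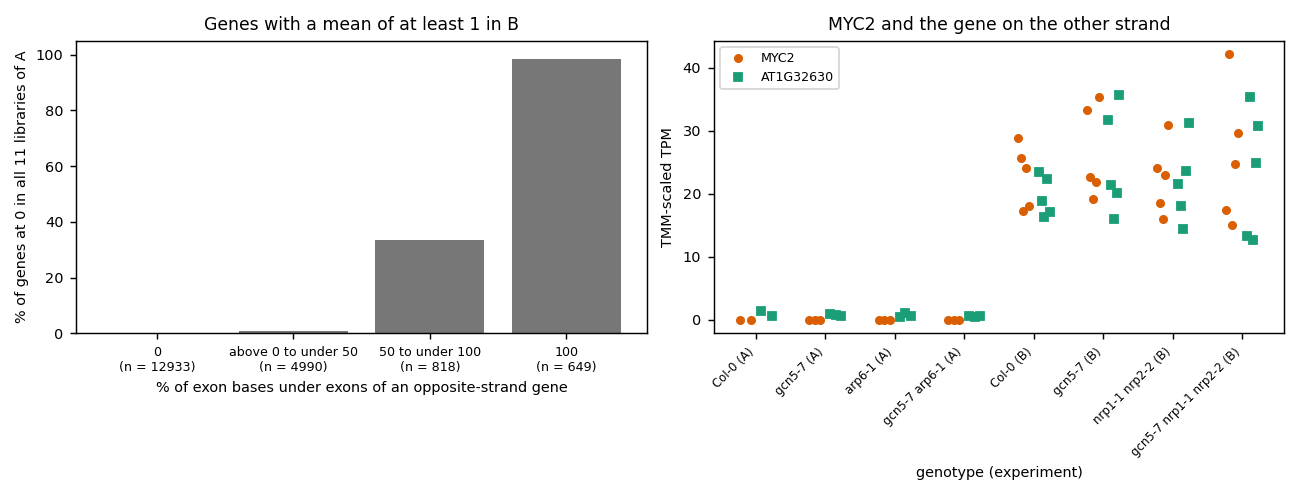
Left, the percentage of genes at 0 in all 11 libraries of A, among genes whose mean in B reached 1, by how much of their exons lies under exons of an opposite-strand gene (0 to 100%; n below each bar). Right, levels (TMM-scaled TPM) of MYC2 and AT1G32630 per library: MYC2 is at 0 throughout A, and both genes lie at similar levels in B.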

How the data were processed

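RNA-seq reads of 31 libraries were trimmed with fastp 0.23.4 and aligned with HISAT2 2.2.1 to TAIR10, per the submitters' processing notes. The deposited signal is TPM scaled by TMM between libraries by the authors, as the deposited tables are named; no header or label describes this step further. The sources used here give no counting tool, strand setting, annotation, filter or treatment of multi-mapped reads. Low values came out as whole multiples of 1 read (within 0.05 of a whole number) for 98.8 to 99.7% of values, which gave the depths stated above; counting error is only a part of the spread between libraries.

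Values were analysed as log2(value + 1), a scale that understates changes of low genes, in R 4.3.3 with limma 3.58.1 (trended, robust), for genes whose mean over a table's libraries reached 1. The tables were normalized separately and fitted separately, with all groups of a table in one fit, and p-values were adjusted over all genes tested. The genes and lists were chosen with earlier results of these data known. Named with full values are the members called in a comparison and, throughout, JAR1, COI1, NINJA and MYC2; of each further list, the 3 called genes with the smallest adjusted p. Other members that were not called are named as examples chosen after their values were seen. Same-numbered libraries were taken as paired where every pair's deviations correlated above 0.1, a low bar. In B this held for nrp1-1 nrp2-2 with Col-0 (lowest r 0.59) and for the triple mutant with Col-0 (0.276), gcn5-7 (0.116) and nrp1-1 nrp2-2 (0.375). It also held for gcn5-7 with nrp1-1 nrp2-2 (0.108), which were not compared with each other. The main fits held no pairing for any comparison, and the replicate block was fitted only as an alternative. Alternatives were another pseudocount (0.1), no filter on low values, equal library sums without organelle genes, a gene-length correction, a replicate block, a term or split for library batches, and leaving out each library. The fit was tested on simulated data.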

Additional observations from a re-analysis of the deposited data

Results flagged for a closer look

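In 128 sets of 5 libraries (32 genes in 4 genotypes of B), 4 had 1 library far from the other 4, where chance gives about 1 in 20. LOX3 was at 2.07 in Col-0 replicate 2 (nearest other library 3.52) and at 1.48 in nrp1-1 nrp2-2 replicate 2 (nearest 2.80). LOX4 was at 17.3 in triple-mutant replicate 3 (nearest 3.75), and VSP1 at 1.99 in triple-mutant replicate 1 (nearest 12.4). The change of CYP94C1 brought by gcn5-7 differed between the arp6-1 and the ARP6 background of A, by -2.29 on the log2 scale (limma interaction, adjusted p = 0.0479). This call was lost in 9 of 11 fits with 1 library left out, with a pseudocount of 0.1 and with equal library sums.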

How the results depend on the processing

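No called gene reversed under any setting. Of 323 values of called genes with 1 library left out, 234 kept their call and 89 lost it. Many of these fits left out a library of a genotype outside the comparison, where the log2 fold change could not move and only the estimate of the spread did. Leaving out 1 library also could not reverse a gene whose groups did not overlap. The number that kept their call therefore overstates how stable the calls are. Counts of called members are given where they differed by over 1.5 times, and percentages are the share of all genes called in the same fit. With the gene-length correction, 1 member was called in gcn5-7 against Col-0 of A (1.18%), 1 in the triple mutant against Col-0 (3.62%) and 2 in the triple mutant against gcn5-7 (5.18%). With equal library sums, 4 were called in gcn5-7 arp6-1 against gcn5-7 (9.99%), 1 against arp6-1 (12.7%) and 0 in the interaction of A (0.207%). With a pseudocount of 0.1, 0 were called against arp6-1 (9.48%) and 0 in the interaction (0.0819%), and without the filter 0 against arp6-1. Smaller differences were 9 with that pseudocount (without LOX6) and 11 without the filter (with JAZ4) in gcn5-7 arp6-1 against gcn5-7, and 8 without the filter (with JAZ7, without LOX2 and ACX1) in gcn5-7 against Col-0 of B. With the replicate block, 16 were called in gcn5-7 against Col-0 of B, 12 higher and 4 lower (AOC4, AOS, MYC4 and VSP2; 49.8%). In gcn5-7 arp6-1 the block gave 4 against Col-0, 1 higher and 3 lower (13.5%), 13 against gcn5-7, 3 higher and 10 lower (37.9%), 14 against arp6-1, 7 higher and 7 lower (49.8%), and 8 in the interaction of A, 1 higher and 7 lower (24.7%). The block gave 1, 7 and 3 in the triple mutant against Col-0, gcn5-7 and nrp1-1 nrp2-2 (9.16%, 25.4% and 6.34%). By the rule on pairing, gcn5-7 with Col-0 of B was not paired (lowest r 0.018), nor was gcn5-7 arp6-1 with gcn5-7 (0.041) or arp6-1 (-0.033), while gcn5-7 and arp6-1 of A deviated together in all 3 pairs (r 0.686 to 0.796), and with Col-0 of A only 2 pairs exist (r 0.573 and 0.859 with gcn5-7, 0.401 and 0.791 with arp6-1). With a term for the 3 libraries of A with high column sums, 2 were called in gcn5-7 against Col-0, both higher (8.01%), 4 in gcn5-7 arp6-1 against Col-0, 2 higher and 2 lower (13.7%), 17 against gcn5-7 (40.6%), 13 against arp6-1 (46.2%), and 9 in the interaction (36%). In replicates 3 to 5 of B alone, 5 were called in gcn5-7 against Col-0, 3 higher and 2 lower (12%), and 2, 1 and 1 in the triple mutant against Col-0, gcn5-7 and nrp1-1 nrp2-2 (2.67%, 0.713% and 0.123%). Leaving out 1 library gave 0 to 10 in gcn5-7 arp6-1 against Col-0, 1 to 13 against gcn5-7, 0 to 10 against arp6-1 and 0 to 3 in the interaction of A; in B it gave 5 to 11 in gcn5-7 against Col-0, 0 to 1 in the triple mutant against Col-0 and 0 to 7 against gcn5-7. Where not stated, the cause was not tested. With 2 or 3 libraries a group, A limits what can be called.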
